A study of Mus musculus with 4 samples.

Results

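Microglia are the resident macrophages of the brain, and the 34 genes described here mark microglia and related macrophages. They were chosen by gene symbol, and 34 of 34 were found among the 23991 symbols listed in each library. The RNA came from the amygdala of mice with the genotype NpyCre/+;TRAPlox/lox, which both groups shared. In the immunoprecipitated group (IP), RNA was recovered by translating ribosome affinity purification (TRAP), which pulls down ribosomes that carry a tag in cells where Cre has acted on a lox allele. The input group was total RNA of the same tissue. Each group had 2 libraries, and each library pooled RNA of 3 mice. The alleles name Npy, the gene of neuropeptide Y, as the Cre driver, so the tag reports cells in which that driver has been active. The labels name no treatment, sex or age of the mice. No library without Cre or from a mock precipitation was analysed, and the level of untagged background RNA is therefore unknown.

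Microglia depend on the receptor Csf1r, which responds to the growth factors Csf1 and interleukin 34. They sense neurons through the fractalkine receptor Cx3cr1 and released nucleotides through P2ry12, and they tag and engulf material with the help of complement C1q and the Trem2-Tyrobp receptor complex. The transcription factors PU.1, encoded by Spi1, and Irf8 are needed for their development.

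Values are FPKM, read numbers scaled to transcript length and library size, so levels can be compared between genes. The sums of FPKM were 423985 and 419349 in the IP libraries and 334759 and 335119 in the input libraries. The confidence limits listed beside each FPKM, read as 2 SD of a read count on either side, correspond to total reads, in units of 1000000, of 16.0 and 13.5 in the IP libraries and 13.2 and 13.7 in the input libraries. As a check of the precipitation, Npy was at 1240 and 1167 FPKM in IP, against 105.4 and 99.2 FPKM in input, and Gad1, which encodes a GABA-synthesizing enzyme, was 4.79-fold higher in IP. The expression test was limma on log2(FPKM + 1), two-sided, with Benjamini-Hochberg adjustment over all genes and a threshold of 0.05. The added 1 shrinks the log2 changes of low genes, and a fold given here is the quotient of the groups' mean FPKM.

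All 34 genes were lower in IP than in input. Both IP values lay below both input values for 34 of 34 genes, against 42.8% of the 18024 genes above 0 in any library. In the limma fit to those 18024 genes, without a filter on level, 34 of the 34 genes were lower and 0 higher, with adjusted p of 0.000752 to 0.0222, where 28.9% of all genes were lower. With the filter used for the other tests (2 or more libraries at 1 FPKM or above), 29 of the 34 genes were tested and 29 were lower and 0 higher, where 33.9% of 12417 genes were lower and 37.0% higher. The input values of each of those 29 would have sufficed to pass the filter, and only Cd68 would also have passed through IP, so that count adds nothing to the unfiltered one. With quantile normalization 25 of the 29 were lower, where 30.2% of genes were. The design text ties each IP to an input of the same mice, so the groups differ in how RNA was recovered, not in the mice. Since RNA was pooled from tissue, the number of cells and the RNA per cell behind a level cannot be told apart in either group.

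The genes were modest in input and near the limit of measurement in IP. Their mean level ran from 0.298 FPKM (Ptprc) to 9.74 FPKM (C1qb) in input, and the median gene was at 0.254 FPKM in IP and 2.53 FPKM in input. The fold decrease ran from 1.43 (Cd68) to 24.5 (Cx3cr1), with a median of 11. It was at least 5-fold for 30 genes and at least 10-fold for 20, where 11.8% and 7.40% of the 18024 genes reached those folds. Across the 34 genes, the rank correlation of the fold with the input level was 0.26 and with transcript length -0.18, as a description of genes that share the same 4 libraries.

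**Figure D1:**
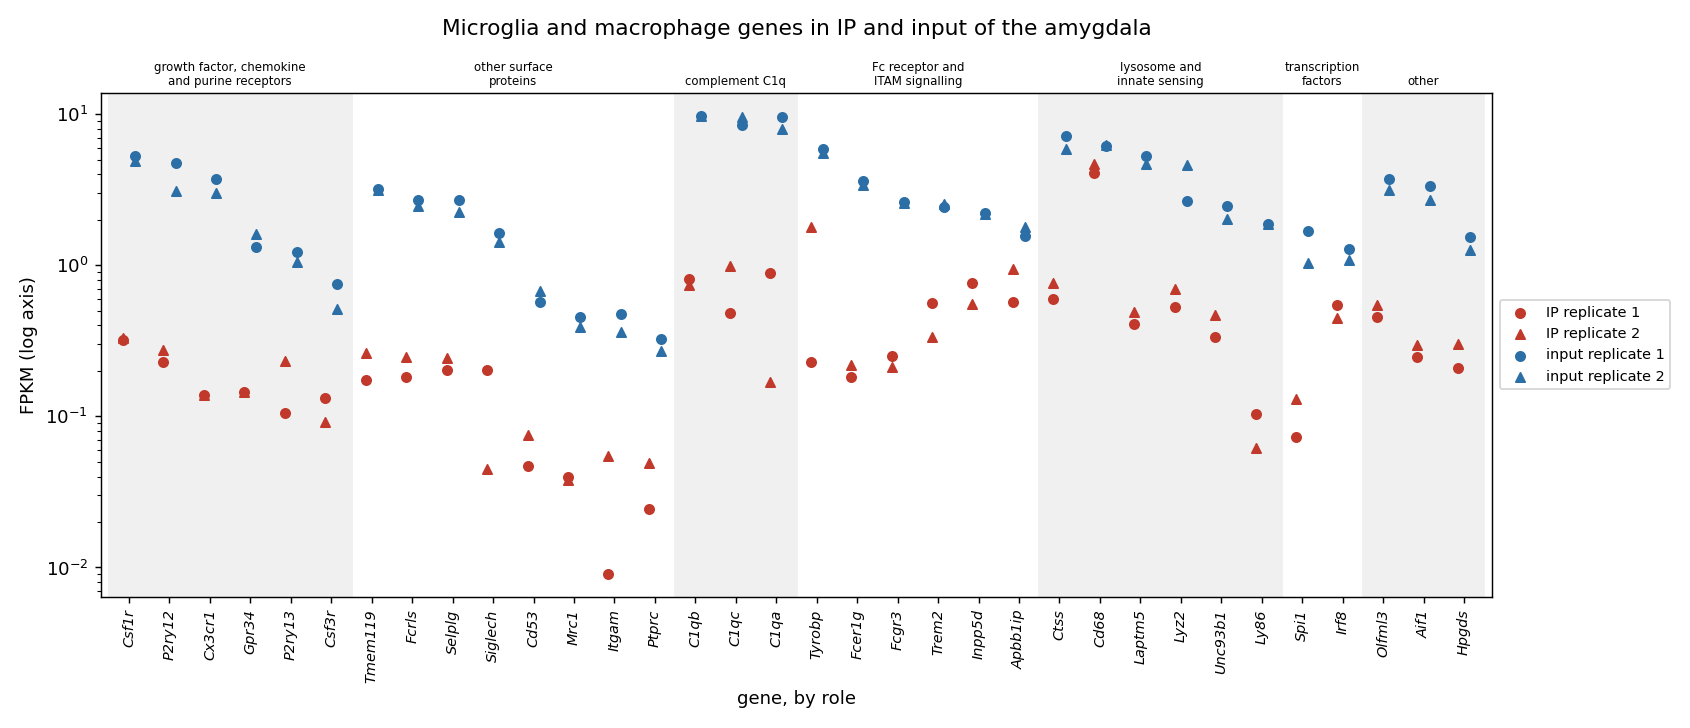
FPKM of the 34 genes in the 2 IP libraries (red) and the 2 input libraries (blue), grouped by role and ordered within a role by input level. The vertical axis is logarithmic, and each point is 1 library. For every gene both red points lie below both blue points, and the gap is smallest for Cd68, at 4.08 and 4.66 FPKM in IP against 6.19 and 6.31 FPKM in input.

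The 6 receptors for growth factors, chemokines and nucleotides ranged from 5.64-fold lower for Csf3r to 24.5-fold lower for Cx3cr1, with Csf1r, Cx3cr1 and P2ry12 above the median fold of the 34 genes. Cx3cr1, the receptor for neuronal fractalkine, was at 0.138 and 0.138 FPKM in IP, against 3.73 and 3.0 FPKM in input. That 24.5-fold difference was the largest among the 34 genes (log2 change -1.94, SE 0.11; limma, adjusted p = 4.08e-05). Csf1r, the receptor on which microglial survival depends, was at 0.321 and 0.333 FPKM in IP, against 5.29 and 4.89 FPKM in input. The IP libraries lay close together for both receptors, and the groups were far apart. P2ry12, the nucleotide receptor that steers microglial processes, was at 0.229 and 0.275 FPKM in IP, against 4.74 and 3.09 FPKM in input, so the input libraries differed from each other but neither approached IP. The other purine-type receptors were also lower, P2ry13 by 6.76-fold and Gpr34, a lysophosphatidylserine receptor, by 10.1-fold. The P2ry13 call was lost with quantile normalization (log2 change -0.25, adjusted p = 0.0974). Csf3r, the receptor for granulocyte colony-stimulating factor, stayed under the filter, at 0.133 and 0.0924 FPKM in IP against 0.754 and 0.516 FPKM in input (adjusted p = 0.00736 without a filter, limma).

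P2ry12 and P2ry13 lie close together on chromosome 3 (59216271 to 59262831 and 59207894 to 59210882, mm10, as listed in the files), both within Med12l, which GENCODE places on the opposite strand. Med12l was at 2.89 and 2.93 FPKM in IP and 5.20 and 5.51 FPKM in input. Gpr34 likewise lies within Cask on the X chromosome, on the opposite strand, and Cask was at 7.77 and 7.27 FPKM in IP and 8.50 and 8.77 FPKM in input. Whether reads were counted by strand is not stated in the labels or headers, so reads of these hosts cannot be told apart from those of the receptors.

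Other surface proteins followed the receptors. Tmem119, a membrane protein used to tell microglia from other macrophages, was at 0.174 and 0.261 FPKM in IP and at 3.22 and 3.16 FPKM in input, a 14.7-fold difference (log2 change -1.78, SE 0.09; limma, adjusted p = 3.3e-05). Its neighbour Selplg, which encodes a selectin ligand and is separated from it by 17445 bases of chromosome 5, was 11.1-fold lower. Fcrls and Siglech, an Fc receptor-like and a sialic acid-binding protein of microglia, were 12-fold and 12.3-fold lower. The IP libraries disagreed on Siglech, at 0.204 and 0.0447 FPKM, with input at 1.63 and 1.43 FPKM. Itgam (integrin CD11b), Ptprc (CD45), Cd53 (a tetraspanin of leukocytes) and Mrc1 (the mannose receptor of macrophages at brain borders) all stayed under the filter. With Csf3r, these 5 genes had 0.0091 to 0.133 FPKM in IP and 0.270 to 0.754 FPKM in input. Both IP values lay below both input values for each of them, as they did for 42.8% of the 18024 genes above 0. Their folds ran from 5.64 for Csf3r to 13.1 for Itgam, and their adjusted p without a filter from 0.00165 for Cd53 to 0.00736 for Csf3r (limma).

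The complement C1q genes had the highest input levels of the 34, with folds of 16.7 for C1qa, 12.5 for C1qb and 12.3 for C1qc. Their log2 changes were the largest with the pseudocount of 1, but with a pseudocount of 0.1 Cx3cr1 (-3.86), Csf1r (-3.60) and Fcer1g (-3.59) exceeded C1qc (-3.52) and C1qb (-3.48). C1qa, C1qb and C1qc encode the 3 chains of C1q, which starts the classical complement pathway and in brain comes mainly from microglia. C1qb was at 0.814 and 0.747 FPKM in IP and at 9.70 and 9.78 FPKM in input (log2 change -2.59, SE 0.08; limma, adjusted p = 1.27e-05). C1qc was at 0.483 and 0.986 FPKM in IP and at 8.52 and 9.56 FPKM in input. C1qa was at 0.888 and 0.168 FPKM in IP and at 9.58 and 8.02 FPKM in input, so its fold was 10.8 in replicate 1 and 47.6 in replicate 2. The chains thus disagreed between the IP libraries in opposite ways, while their sum was 2.18 and 1.90 FPKM in IP and 27.8 and 27.4 FPKM in input. The 3 genes lie within 18700 bases of chromosome 4, from 136880145 to 136898844 (mm10).

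Fc receptor and ITAM signalling genes were lower, with a wider spread of folds. ITAMs are the phosphorylated motifs through which Trem2, Fc receptors and their adaptors signal. Fcer1g, the shared Fc receptor gamma chain, was at 0.183 and 0.220 FPKM in IP and at 3.64 and 3.42 FPKM in input, a 17.5-fold difference. Fcgr3, an activating IgG receptor, was at 0.249 and 0.214 FPKM in IP and at 2.62 and 2.60 FPKM in input, a difference of 11.3-fold. Trem2, a lipid-sensing receptor, was at 0.566 and 0.333 FPKM in IP and 2.42 and 2.54 FPKM in input, 5.52-fold apart. Its adaptor Tyrobp (DAP12) was the least settled gene of the 34, at 0.231 and 1.80 FPKM in IP and 5.91 and 5.58 FPKM in input. Its fold was 25.6 in replicate 1 and 3.10 in replicate 2 (log2 change -1.86, SE 0.35; limma, adjusted p = 0.00352). Leaving out an input library ended the call but hardly moved the log2 change, which was -1.83 without replicate 1 (adjusted p = 0.0557) and -1.90 without replicate 2 (adjusted p = 0.051). Leaving out an IP library moved it to -1.27 without replicate 1 and -2.45 without replicate 2, and the call was kept.

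Inpp5d and Apbb1ip, which act downstream of these receptors, were reduced less. Inpp5d, the phosphatase SHIP1 that dampens ITAM signals, was at 0.765 and 0.558 FPKM in IP and at 2.21 and 2.20 FPKM in input, 3.33-fold apart (limma, adjusted p = 0.000334). Apbb1ip, an adaptor that links Rap1 to integrins, was at 0.576 and 0.943 FPKM in IP and at 1.57 and 1.78 FPKM in input (log2 change -0.61, SE 0.13; limma, adjusted p = 0.00568). The Apbb1ip call was lost with quantile normalization (log2 change -0.14, adjusted p = 0.348) and without input replicate 2 (-0.55, adjusted p = 0.0543).

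Lysosomal and innate sensing genes held both a large and the smallest difference. Ctss, the cathepsin of antigen-presenting cells, was at 0.604 and 0.768 FPKM in IP and 7.15 and 5.93 FPKM in input. Laptm5, a lysosomal membrane protein of blood-lineage cells, was 11.1-fold lower, and Ly86, which pairs with a Toll-like receptor homologue, was 22.7-fold lower. Unc93b1, the chaperone that delivers nucleic acid-sensing Toll-like receptors, was 5.63-fold lower. Lyz2 (lysozyme) was at 0.530 and 0.694 FPKM in IP and at 2.69 and 4.60 FPKM in input. Its input libraries lay apart, but both were above IP. Lyz1, a near-identical paralog that can share reads with Lyz2, was listed at 0.116 and 0 FPKM in IP and 0.044 and 0.0424 FPKM in input.

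Cd68, a glycoprotein of phagocyte lysosomes, stood apart. It was at 4.08 and 4.66 FPKM in IP, against 6.19 and 6.31 FPKM in input, or 69.9% of input (log2 change -0.44, SE 0.09; limma, adjusted p = 0.00424). It alone of the 34 genes reached 1 FPKM in both IP libraries, and it made up 28.5% and 27.3% of the summed FPKM of the 34 genes in IP, against 5.50% and 5.99% in input. The call was lost with quantile normalization (-0.22, adjusted p = 0.0545). Cd68 lies on chromosome 11 from 69664213 to 69666170 (mm10), with 765 bases between its start and the end of Eif4a1, a translation initiation factor gene on the same strand. Eif4a1 was at 96.7 and 93.1 FPKM in IP and at 75.3 and 74.7 FPKM in input, and its part in the Cd68 value was not tested.

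The 34 genes summed to 14.3 and 17.1 FPKM in IP and to 112.6 and 105.3 FPKM in input. IP thus held 12.7% of the input sum in replicate 1 and 16.2% in replicate 2, and without Cd68 the shares were 9.60% and 12.5%.

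Promoter sequences of 5 of these genes are shown because PU.1, the factor encoded by Spi1, is known to bind sites with the core GAGGAA. They are the 250 bases before the transcription start from RefSeq (GRCm38.p6), 5′ to 3′ on the gene's strand, with matches to GAGGAA or its reverse complement TTCCTC in capitals. C1qb, C1qc, Ctss and Laptm5 are highly expressed members with large differences, and Cd68 is the exception.
C1qb (chr4:136886201-136886450, minus strand): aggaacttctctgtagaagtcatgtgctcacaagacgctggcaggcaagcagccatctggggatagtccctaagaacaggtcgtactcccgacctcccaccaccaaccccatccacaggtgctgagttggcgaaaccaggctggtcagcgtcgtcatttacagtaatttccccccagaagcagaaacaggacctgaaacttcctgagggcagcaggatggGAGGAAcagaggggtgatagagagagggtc
C1qc (chr4:136892915-136893164, minus strand): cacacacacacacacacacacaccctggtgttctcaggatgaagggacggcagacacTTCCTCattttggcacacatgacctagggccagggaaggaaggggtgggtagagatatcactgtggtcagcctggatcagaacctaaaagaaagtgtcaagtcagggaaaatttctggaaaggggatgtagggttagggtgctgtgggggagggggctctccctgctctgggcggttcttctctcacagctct
Ctss (chr3:95526536-95526785, plus strand): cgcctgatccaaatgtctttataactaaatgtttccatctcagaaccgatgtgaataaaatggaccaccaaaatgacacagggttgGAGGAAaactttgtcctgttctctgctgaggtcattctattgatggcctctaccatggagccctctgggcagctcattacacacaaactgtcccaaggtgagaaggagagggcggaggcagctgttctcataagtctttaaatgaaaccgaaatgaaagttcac
Laptm5 (chr4:130913066-130913315, plus strand): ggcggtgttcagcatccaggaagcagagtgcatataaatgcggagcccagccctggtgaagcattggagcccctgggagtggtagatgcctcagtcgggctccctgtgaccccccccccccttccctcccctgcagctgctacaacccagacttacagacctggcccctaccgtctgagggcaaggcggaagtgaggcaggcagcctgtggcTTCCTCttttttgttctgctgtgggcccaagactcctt
Cd68 (chr11:69666171-69666420, minus strand): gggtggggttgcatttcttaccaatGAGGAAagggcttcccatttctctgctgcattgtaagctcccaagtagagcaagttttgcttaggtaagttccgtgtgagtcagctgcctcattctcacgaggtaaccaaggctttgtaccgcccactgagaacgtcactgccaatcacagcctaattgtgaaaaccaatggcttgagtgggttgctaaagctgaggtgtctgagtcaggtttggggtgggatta
Each of the 5 held 1 match, 30 bases before the start in C1qb, 193 in C1qc, 164 in Ctss, 38 in Laptm5 and 225 in Cd68, counted from the match's upstream base. Of the 34 genes 26 had a promoter entry, in 29 entries, and 18 entries held GAGGAA on either strand, where 23.3% of all 32851 entries did. By gene, 17 of the 26 had a match, so the 5 shown do not stand for all of them. Genes without a match included Cx3cr1, Ly86, Fcer1g and P2ry12, with folds of 24.5, 22.7, 17.5 and 15.5. They also included Irf8 and Apbb1ip, with folds of 2.40 and 2.21. A link between match and fold was not tested. The longer GAGGAAGT, which contains it, was in 3 of the 29 entries and in 2.44% of all. A match describes these letters only and says nothing about binding in these cells.

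The transcription factors differed from each other. Spi1 was at 0.0725 and 0.131 FPKM in IP and at 1.69 and 1.04 FPKM in input, a 13.4-fold difference (log2 change -1.09, SE 0.15; limma, adjusted p = 0.000935). Irf8 was at 0.543 and 0.448 FPKM in IP and at 1.29 and 1.09 FPKM in input, or 41.6% of input (log2 change -0.55, SE 0.10; limma, adjusted p = 0.00345). The difference in Irf8 was 0.0325 with quantile normalization (limma, adjusted p = 0.812), so neither the decrease nor the call held with that scaling. Irf8 stayed lower after rescaling (-1.08), with median-of-ratios factors (-0.524) and after correction for transcript length (-0.622). Among the remaining genes, Aif1, which encodes the actin-binding protein IBA1, was at 0.246 and 0.295 FPKM in IP and 3.36 and 2.70 FPKM in input. Olfml3, a secreted protein of microglia, was 6.89-fold lower, and Hpgds, the haematopoietic prostaglandin D synthase, 5.48-fold lower.

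**Figure D2:**
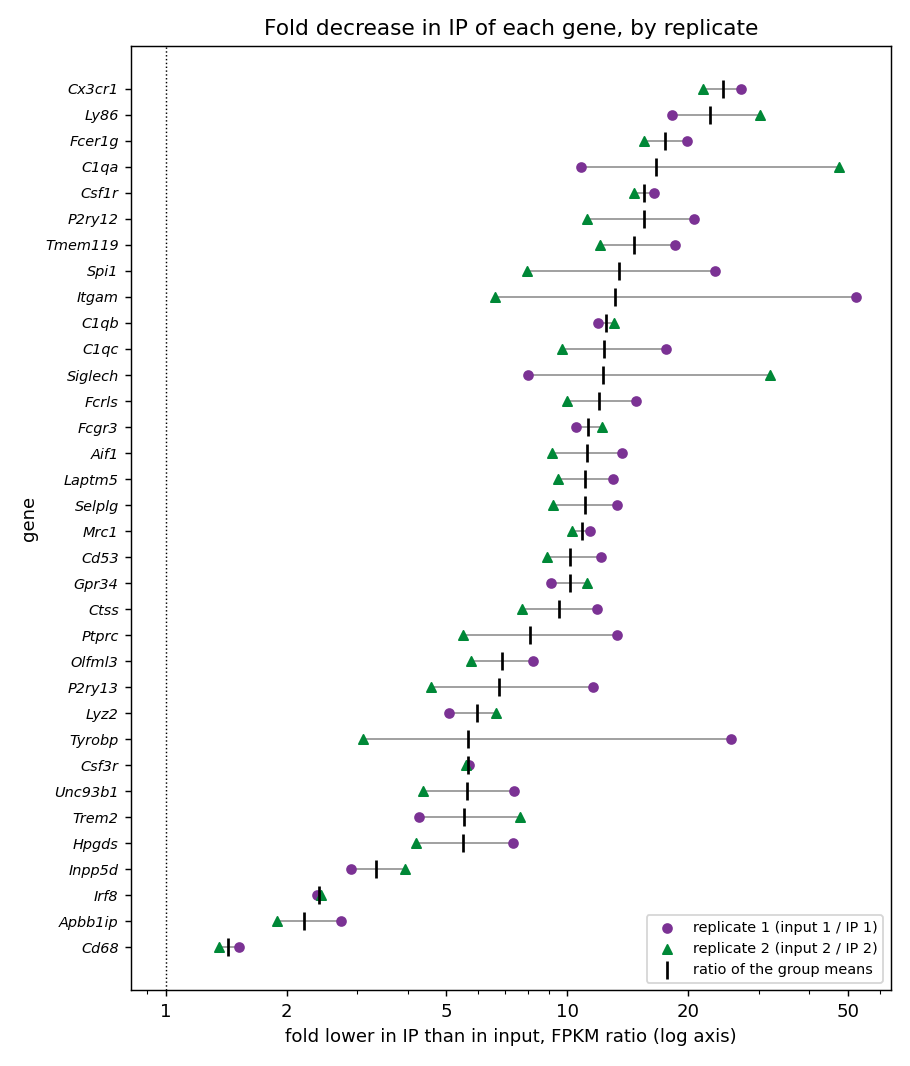
Fold decrease in IP of each of the 34 genes, as the ratio of FPKM in input to FPKM in IP, on a logarithmic axis where 1 is no difference. Circles are replicate 1, triangles replicate 2 and bars the ratio of the group means. No point lies below 1, the lowest bar is that of Cd68 at 1.43, and Tyrobp, Itgam, C1qa and Siglech have replicates that lie farthest apart.

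The replicates agreed on direction for each gene and less on size. The median fold was 11.9 in replicate 1 and 9.04 in replicate 2. For 27 genes the folds of the replicates were within 2-fold of each other, and for 7 they were not, namely Tyrobp, Itgam, C1qa, Siglech, Spi1, P2ry13 and Ptprc. Few reads lay behind these values. The confidence limits imply 2 SD of a read count on either side, which gives 1.99 and 13 reads for Tyrobp in IP, 18.9 and 3 for C1qa in IP, and 11 and 1.99 for Siglech in IP. The folds of Ly86 (22.7), Fcer1g (17.5) and Itgam (13.1) also rested on few reads. In IP these were 1.99 and 1.0 for Ly86, 1.99 and 1.99 for Fcer1g and 0.539 and 4.05 for Itgam. Over the 34 genes the implied reads ran from 0.539 to 81.7 in IP with a median of 11, and from 25.8 to 419 in input with a median of 80.3. Of the 68 IP values 20 rested on fewer than 5 implied reads and 32 on fewer than 10, against 0 of 68 input values in each case. The reads are inferred, not listed. Among all genes, 59.7% of the values under 50 came out within 0.05 of a whole number. The precision they give covers counting error only.

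**Figure D3:**
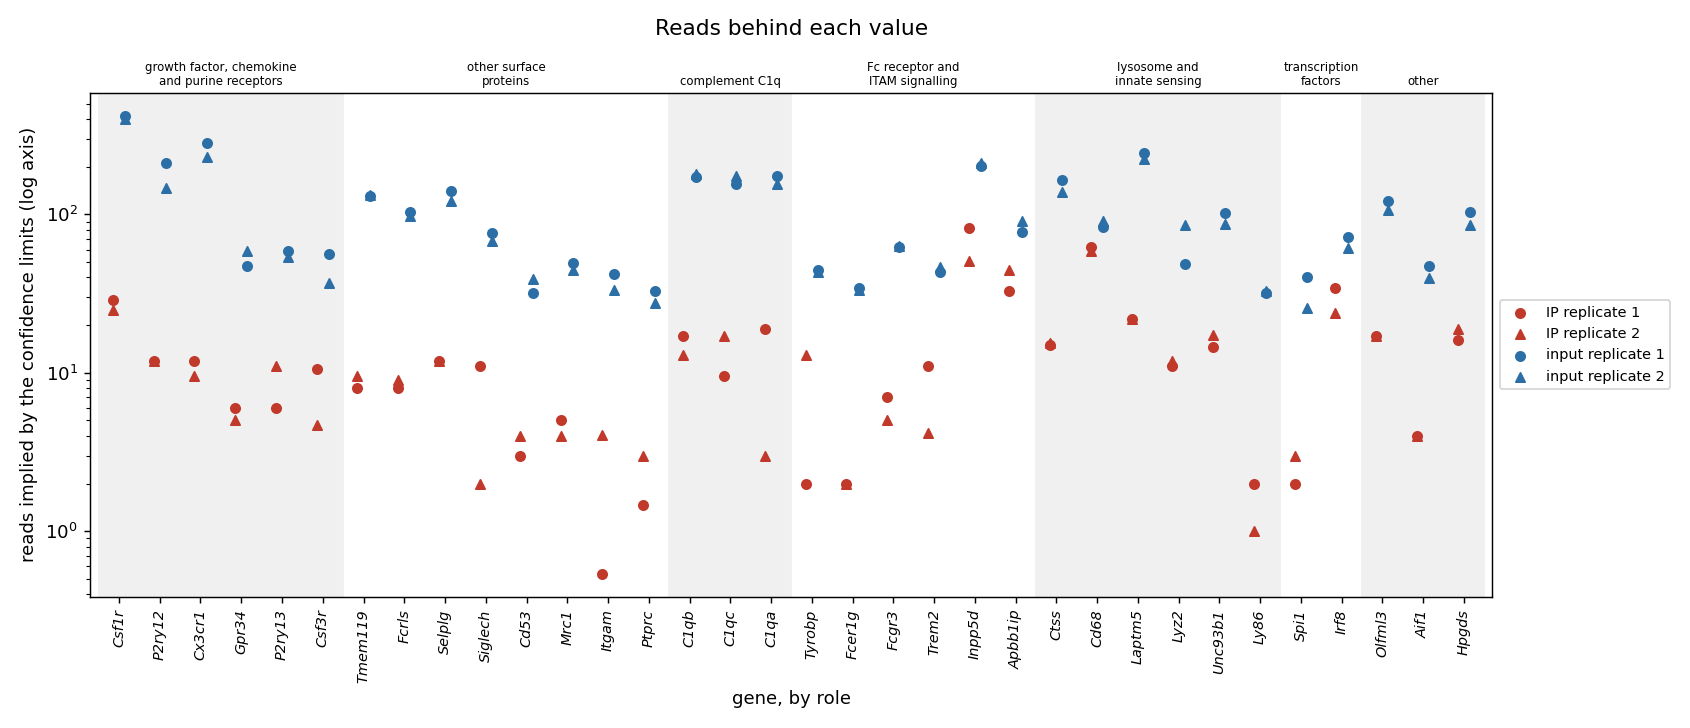
Reads implied by the listed confidence limits for each gene in the 2 IP libraries (red) and the 2 input libraries (blue), on a logarithmic axis, in the same gene order as the plot of FPKM. Input values all rest on more than 25 implied reads, while 32 of the 68 IP values rest on fewer than 10.

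The size of the gap between groups was set against those limits. For 32 of the 34 genes the confidence limits of both IP values lay entirely below those of both input values, where 21.8% of the 18024 genes did. Cd68 and Apbb1ip were the exceptions. For Cd68 the limits were 3.04 to 5.12 and 3.45 to 5.88 FPKM in IP and 4.83 to 7.55 and 4.99 to 7.63 FPKM in input.

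Of 8 ligands and inhibitory signals for microglia 6 were tested, with 3 lower, 2 higher and 1 not past the threshold, or 4 lower and 0 higher after rescaling. Over all 12417 genes 33.9% were lower and 37.0% higher before rescaling. Rescaling put the median of all genes at -0.29, and the shares of all genes after it are not given. Il34, a neuronal ligand of Csf1r, was at 32.3 and 33.8 FPKM in IP and at 23.9 and 25.6 FPKM in input (log2 change 0.40; limma, adjusted p = 0.00135), a call lost after rescaling each library to the same sum (0.077, adjusted p = 0.318), and likewise once changes were corrected for gene length (0.16, with an adjusted p of 0.0589). Csf1, the other Csf1r ligand, was at 1.36 and 1.52 FPKM in IP and 3.18 and 3.36 FPKM in input (log2 change -0.81; limma, adjusted p = 0.00037). Cx3cl1, the fractalkine ligand of Cx3cr1, was at 137.3 and 123.1 FPKM in IP and 147.5 and 153.1 FPKM in input (log2 change -0.21; limma, adjusted p = 0.0263). The decrease in Cx3cl1 was larger after rescaling (-0.549; limma, adjusted p = 0.000408) and with quantile normalization (-0.64, adjusted p = 0.000332). Its call was lost with median-of-ratios factors (-0.15, adjusted p = 0.0626), without a filter (adjusted p = 0.0598) and without trend (adjusted p = 0.0579). Dropping IP replicate 2 also ended it (limma, adjusted p = 0.098), as did dropping the first or second input library, with adjusted p-values of 0.0948 and 0.16. Cd200, a neuronal ligand that restrains microglia, rose by 0.40 on the log2 scale, but not after rescaling (0.068, adjusted p = 0.383) or with quantile normalization (0.14, adjusted p = 0.101). Cd47, the phagocytosis-inhibiting ligand, did not pass, at 12.4 and 11.3 FPKM in IP and 11.2 and 12.3 FPKM in input, but was lower after rescaling (-0.32, adjusted p = 0.0132). Tgfb2 had a log2 change of -0.83 (limma, adjusted p = 0.000409), Tgfb1 was under the filter, and Csf3 was listed at 0 in all 4 libraries. The receptor Cx3cr1 and its ligand thus had IP levels of 4.09% and 86.6% of input, as FPKM before rescaling.

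Further genes of the microglial programme were counted in lists. Of 23 other microglial genes 13 were tested, of which 9 were lower, 3 higher and 1 did not pass, with a median log2 change of -0.90, where the median of all 12417 genes was 0.025. Over all 12417 genes 33.9% were lower and 37.0% higher. Without a filter 16 of 23 were lower and 3 higher, where 28.9% of all genes were lower. Among the higher genes, Rgs10, a regulator of G protein signalling, was at 234% of input and Tgfbr2, a receptor for TGF-beta, at 162%. The Tgfbr2 call was lost after rescaling (0.30, adjusted p = 0.0533). Bin2, a myeloid membrane-shaping protein, was at 0.046 FPKM in IP replicate 1 and listed at 0 in IP replicate 2, against 1.94 and 1.69 FPKM in input; it was chosen after its values were seen.

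Genes of phagocyte signalling and innate receptors were mostly under the filter. Of 18 signalling genes (kinases, exchange factors and actin regulators) 5 were tested, with 4 lower and 1 not past the threshold. Over all 12417 genes tested 33.9% were lower and 37.0% higher. Without a filter 14 of 18 were lower and 0 higher, where 28.9% of all genes were lower. Coro1a, an actin regulator also found in neurons, stayed above the threshold (adjusted p = 0.209), at 66.7 and 54.1 FPKM in IP and 67.1 and 66.3 FPKM in input. It was lower after rescaling (adjusted p = 0.00379) and with quantile normalization (adjusted p = 0.00449). Of 20 innate receptors 5 were tested, with 3 lower, 1 higher and 1 not past the threshold. The shares of all genes tested were again 33.9% lower and 37.0% higher. Without a filter 16 were lower and 1 higher, against the same 28.9% of all genes lower. The higher one was the ATP-gated channel P2rx4, at 156% of input, while the related P2rx7, chosen for this contrast after its value was seen, was at 14.6%.

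Complement beyond C1q was lower where it passed. Of 14 genes 13 matched a symbol in the files and 6 were tested, with 4 lower, 0 higher and 2 not past the threshold. Over all 12417 genes 33.9% were lower and 37.0% higher. Among the 6, 1 was higher with median-of-ratios scaling and 2 with quantile normalization. The share of all genes higher is not given for those settings. Without a filter 8 were lower and 0 higher, where 28.9% of all genes were lower. Clu (clusterin) was at 99.5 and 118.9 FPKM in IP and at 176.0 and 184.1 FPKM in input. The membrane inhibitors Cd55 and Cd59a did not pass, at 132% and 104% of input.

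General lysosomal genes were mixed. Over all genes tested 33.9% were lower and 37.0% higher. Of 16 lysosomal genes 15 were tested, with 3 lower, 7 higher and 5 not past the threshold, and a median log2 change of 0.055. That balance rested on the scaling, with 8 lower and 2 higher after rescaling and 4 lower and 4 higher with quantile normalization. Rescaling put the median of all genes at -0.29, and the shares of all genes after it are not given. With quantile normalization 30.2% of all genes were lower. Psap, Ctsd and Ctsb, a sphingolipid activator and broadly expressed cathepsins, were at 130%, 129% and 148% of input. The 3 lower genes were Ctsh at 11% of input, Lamp2 at 69.3% and Cd63 at 71.5%, the last of which did not pass without input replicate 1 (adjusted p = 0.0646). Genes linked to activated microglia were low or shared with other cells. Of 17, 6 were tested, with 5 lower and 1 higher. Without a filter 7 were lower and 1 higher of the 16 above 0, where 28.9% of all genes were lower. Cst7 was listed at 0 in all libraries, while Il1a and Clec7a were listed at 0 in both IP libraries. Apoe, which astrocytes also express strongly, was at 63.6 and 95.7 FPKM in IP and at 321.8 and 353.7 FPKM in input. Gpnmb was the higher gene, at 1.10 and 1.07 FPKM in IP and 0.206 and 0.498 FPKM in input, and passed the filter through IP alone.

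Markers of other myeloid and blood cells were scarce. The 11 genes of border macrophages summed to 0.474 and 0.958 FPKM in IP and to 5.01 and 7.16 FPKM in input. Both IP values lay below both input values for 11 of 11, where 42.8% of the 18024 genes did. In the fit without a filter 8 were lower and 0 higher, where 28.9% of all genes were lower. Cbr2 was the only one tested, at 5.21% of input. The 9 monocyte and neutrophil genes summed to 1.07 and 0.659 FPKM in IP and to 1.40 and 1.60 FPKM in input, and 0 met the filter. In the fit without a filter 0 were lower and 0 higher, where 28.9% of all genes were lower. Of the 9, 6 and 8 were listed at 0 in the IP libraries and 3 and 2 in the input libraries. Values so near 0 leave little room for a call. Of these 9, Ccr2 and Ly6c2 were listed at 0 in both IP libraries. Of 10 lymphocyte genes, Cd3d, Cd3g, Cd8a, Cd79b and Ms4a1 were listed at 0 in all 4 libraries, and Cd4 was the only gene tested, at 2.52 and 2.06 FPKM in IP and 7.04 and 3.92 FPKM in input. The Cd4 call was lost with quantile normalization (adjusted p = 0.0522). Their part in the values of the 34 genes was not tested.

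The genes were set beside markers of other cell types of the tissue, as a description. The median of the 29 tested genes, which had passed the filter through input, was 9.03% of input, with a range of 4.09% to 69.9%. The median was 19.2% for 8 oligodendrocyte genes, with a range of 16.5% to 30.7%, and 27.2% for 8 astrocyte genes, with a range of 14.1% to 92.3%. It was 21.7% for the 3 endothelial genes tested and 483% for 8 genes of GABAergic neurons. For the 13 other microglial genes tested it was 32.2%, with a range of 1.27% to 470%. As log2 changes the medians were -1.55 for the 29 genes and -2.06, -1.71 and -1.12 for the oligodendrocyte, astrocyte and endothelial lists. The order of the lists thus depended on the genes chosen and on the measure. Of the 34 genes 24 lay below the lowest oligodendrocyte gene, Opalin, a myelin membrane protein. The oligodendrocyte and astrocyte genes were higher in input, with sums of 511 and 473 FPKM for the oligodendrocyte list and 515 and 563 FPKM for the astrocyte list. The difference between lists was not tested.

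**Figure D4:**
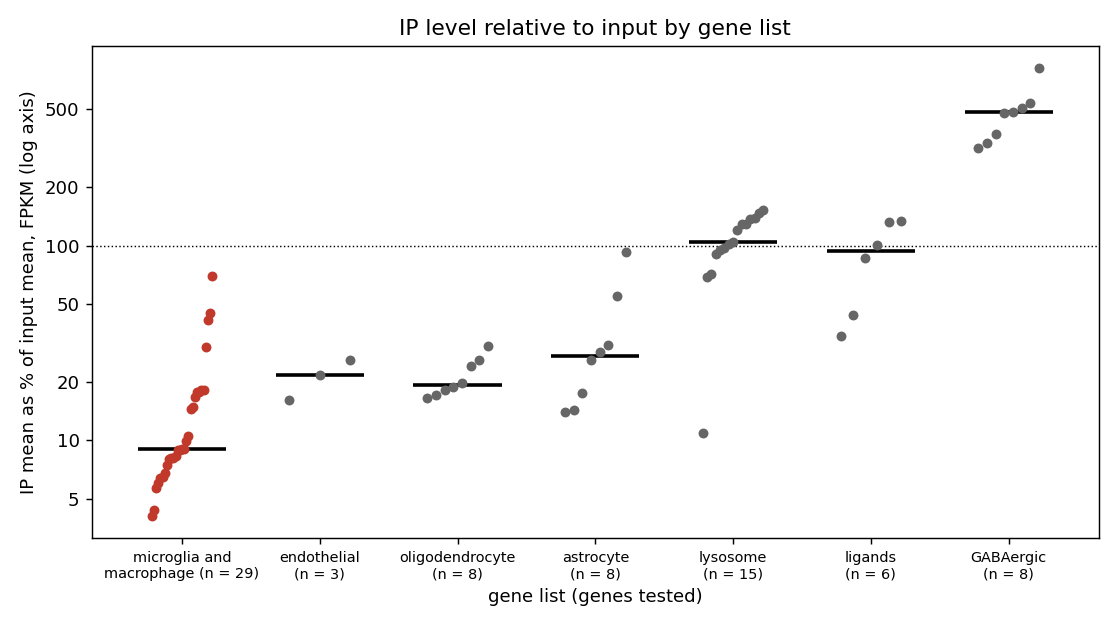
Mean IP level as a percentage of mean input level for each gene tested, by gene list, on a logarithmic axis with a dotted line at 100%. Points are genes and bars are medians, which run from 9.03% for the 29 microglia and macrophage genes tested to 483% for the 8 GABAergic genes. The list of other microglial genes is not shown.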

How the data were processed

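Gene-level FPKM from 2 IP and 2 input libraries were analysed, each library made from pooled RNA of 3 mice and read from 1 end over 100 bp, as the design text states. TopHat with default parameters placed the reads on mm10 with the iGenomes UCSC annotation, and the deposited FPKM with their confidence limits were made by the authors with Cufflinks, per the design text and the file headers. Tool versions, strand-specific counting and scaling between libraries are not given in the sources used here, and the authors' Cuffdiff test was not used. FPKM are not counts, so no count test was run.

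Groups and replicate numbers came from the sample titles. For IP replicate 2 the source field says replicate 1; its title was used. The design text ties each IP to an input of the same mice, which pairs equal numbers. Across genes, IP replicate 1 and input replicate 1 deviated together from their means with r = 0.162.

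Of 24490 entries per library, 8 with a failed status and 1285 with small RNA names were left out, and a symbol with several entries was represented by its highest entry by mean. Values were tested as log2(FPKM + 1) with lmFit and eBayes with trend in limma 3.58.1 (R 4.3.3), IP minus input, without a block. The fit was tested on simulated data. Tables and figures used Python 3.11.15, pandas 2.3.3, numpy 2.4.6 and matplotlib 3.10.9. Coordinates are those of the files, written 1-based. Promoters came from RefSeq, and strand and length from GENCODE M21, both on GRCm38, the assembly that mm10 names. Alternatives were pseudocounts of 0.1 and 5, no filter or a stricter one (5 FPKM), summed entries, a transcript length correction, quantile normalization, median-of-ratios factors, rescaling of libraries to 1000000, the replicate number as a block, no trend in eBayes, and each library left out. The 34 genes, the lists and the tests were chosen with earlier results of these data known. The rule for other named genes took the 3 highest by mean level of each list, those called against the direction of most of their list, and all ligands. Of this rule's genes, only those that a result turns on are given with values. Some genes that the rule names are not reported here.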

Additional observations from a re-analysis of the deposited data

How the results depend on the processing

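With 2 pools in each group, p-values rest on the spread between these pools, which eBayes draws towards that of other genes of like level. IP and input are tied to the same mice, a pairing that the main fit leaves out. The low IP values had few reads behind them. Of the 29 genes tested 29 were lower and 0 higher, with a median log2 change of -1.55. The share of all genes lower was 33.9% in that fit, 28.9% without a filter and 30.2% with quantile normalization. It is not given for the other settings, so their counts have no such share beside them. Among the 29 genes the count of lower ones was 29 with the replicate number as a block, which changed no call and left the median at -1.55. It was 6 with a filter at FPKM of 5, where only 6 genes were tested (median -2.35), and 25 with quantile normalization (median -1.03). The median was -2.99 with a pseudocount of 0.1, -0.541 with a pseudocount of 5, -2.49 after rescaling and -1.82 after correction for transcript length. Rescaling put the median of all genes at -0.29, against 0.025 without it, and relative to it the 29 genes were at -2.20. With 1 library left out, which assumes that the lone library varies like the other group's, the count was 27 to 29, the count of higher genes 0 to 0, and the median -1.60 to -1.48. With quantile normalization Irf8 was at 0.0325, and P2ry13, Cd68 and Apbb1ip did not pass; the cause was not tested. Of the single-gene values under these settings 405 kept direction and call, 6 lost the call and 1 changed sign.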
